A study of Mus musculus with 4 samples.

Results

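Among single-cell transcriptomes of stroma-enriched mouse submandibular gland, 5793 of 36685 retained cells formed an epithelial set chosen by keratins and by the summed UMIs of Fxyd2, the gamma subunit that modulates the sodium-potassium pump, and the muscle-type cytochrome c oxidase subunit Cox8b, which only 17.1% of them carried. Barcodes with 300 or more genes detected were retained when mitochondrially encoded genes gave no more than 10% of their unique molecular identifiers (UMIs, counted RNA molecules). A member carried at least 3 UMIs of Fxyd2 and Cox8b together, at least 1 UMI of the keratins Krt7, Krt8 and Krt18, no UMI of the leukocyte gene Ptprc or the endothelial gene Pecam1, and under 5% of its UMIs from Klk1b kallikrein genes. The rule thus read the cells' own UMIs, and every level of a member against other cells below is a description without a test.

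Striated ducts receive the primary saliva of the acini and modify it: they take up sodium and chloride through channels and exchangers, return potassium and bicarbonate, and are driven by the basolateral sodium-potassium pump. Their name comes from deep basal infoldings packed with mitochondria, so the subunits of the respiratory chain, which carries electrons through complexes I to IV and makes ATP at complex V, are abundant in these cells. In rodents a related segment, the granular convoluted duct, stores kallikreins and growth factors in secretory granules.

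All 4 libraries came from female C57BL6/J mice and were made by droplet sequencing after repeated bead depletion of EpCAM-positive epithelial cells and Ter119-positive erythroid cells and removal of dead cells. In the 2 deligated libraries, from 14-week-old mice, a metal clip had closed the main ducts for 14 days and had been taken off 5 days before harvest. The 2 homeostatic libraries came from 12-week-old mice with no surgery. Age, surgery and the Cell Ranger version in the matrix headers all followed the group, so their parts in any group difference cannot be told apart. The labels name the submandibular gland, while the extraction protocol lists sublingual glands with it, so which of these glands supplied a cell or a secretory transcript cannot be told apart. The number of animals behind a library is not stated, and p-values measure only the spread between these libraries, which may be technical.

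The libraries held 35662241 and 53898793 UMIs (deligated) and 53633980 and 52379402 UMIs (homeostatic), and 36685 of 39558 barcodes were retained. Between 14 and 54 barcode sequences were shared by any pair of libraries, and 2 of the shared sequences were members in both homeostatic libraries. A doublet caller marked 0 and 0 members in the deligated libraries and 142 and 169 in the homeostatic ones. These were 0%, 0%, 5.17% and 5.80% of members, against 3.63%, 6.71%, 9.37% and 9.66% of all retained cells of the same libraries. The number of cells marked was set in advance by the size of the library. Fxyd2 RNA was also found outside these cells in the homeostatic libraries: with every cell reduced at random to 500 UMIs (no retained cell was shallower), a Fxyd2 UMI was found in 22.6% and 24.2% of Pecam1-positive cells, against 97.2% and 97.6% of members. In the deligated libraries the Pecam1-positive shares were 0.157% and 1.41%, against 90.6% and 98.0% of members. At their full depth 20.3% and 22.7% of homeostatic Pecam1-positive cells reached the rule's 3 UMIs of Fxyd2 and Cox8b, against 0.210% and 0.689% of deligated ones, and the part of this background in the group difference in members was not tested.

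The cells were numerous in the homeostatic libraries and scarce in the deligated ones. Deligated library 1 held 32 among 4521 retained cells (0.708%, exact Clopper-Pearson 95% interval 0.485 to 0.998), and deligated library 2 held 100 among 8386 (1.19%, 0.971 to 1.45). Homeostatic library 1 held 2748 among 11713 (23.5%, 22.7 to 24.2), and homeostatic library 2 held 2913 among 12065 (24.1%, 23.4 to 24.9). These intervals cover counting error only, and the groups did not overlap. Homeostatic libraries supplied 97.7% of all members. The log2 ratio of shares was -4.55 (SE 0.18), with an adjusted p of 4.18e-11 in edgeR's quasi-likelihood test on cell numbers in 6 exclusive classes, 2 libraries a group; an exact permutation test of 2 against 2 cannot go below 0.333. Every one of 15 alternatives kept the direction and the call, with log2 ratios from -5.07 to -4.32.

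Bead depletion of EpCAM acted on these shares, and how far it differed between libraries was not tested. Other keratin-positive classes fell in the same direction: cells with at least 5% Klk1b UMIs and a keratin had a log2 ratio of -4.09 (edgeR adjusted p = 5.35e-05), and the other keratin-positive cells one of -2.80 (8.79e-07). In the deligated libraries the latter held 0.825% and 0.869% of fibroblast markers after thinning. Their acinar and intercalated markers made up 1.08% and 0.662%, so this class was mixed. Ptprc-positive cells had a log2 ratio of 1.06 (1.52e-06), while Pecam1-positive cells had 0.18 and did not pass (0.128). The classes of a library share the same total, so a fall in the share of members by itself raises the other shares. Epcam itself, the gene of the depleted surface protein, had a UMI in 25.0% and 19.0% of deligated members and in 14.6% and 13.8% of homeostatic ones (21.9%, 8%, 5.82% and 6.01% after thinning).

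**Figure D1:**
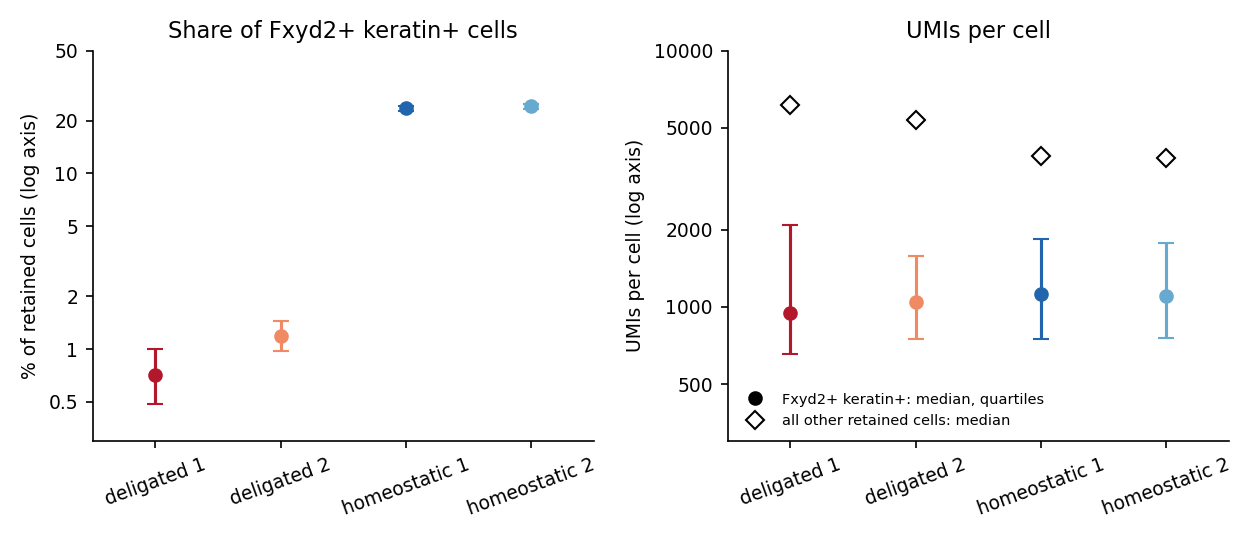
Left, percentage of retained cells that met the rule in each library, with exact 95% intervals, on a log axis. Right, UMIs per cell on a log axis: filled points are medians of these cells with quartile bars, open diamonds medians of all other retained cells. Shares of 0.708% and 1.19% stand against 23.5% and 24.1%, while all 4 medians lie between 950 and 1123.5 UMIs, below the 3818 to 6156 of the other cells.

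These were shallow cells. Median UMIs per member were 950 and 1042.5 in the deligated libraries and 1123.5 and 1104 in the homeostatic ones, with median gene numbers of 546 to 602.5. The medians of all other retained cells were 6156, 5380.5, 3893 and 3818 UMIs. Of the members, 43.2% had under 1000 UMIs. A few deep cells carried much of the summed RNA: the 7, 3, 148 and 120 members with at least 5000 UMIs held 74.3%, 19.4%, 42.3% and 39.1% of their library's member UMIs. For this reason a level is given below as thinned CPM, the CPM when every cell is reduced to 500 UMIs and counts equally. One UMI is then worth 62.5 CPM in deligated library 1, so low values there are single molecules.

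Fxyd2 decided membership almost alone. No member had Cox8b without Fxyd2, 993 (17.1%) had both, and 4800 had Fxyd2 only. Just inside the threshold, 106 members had exactly 3 UMIs of the pair, and 173 cells that met every other condition had 2. The keratin condition cut deeper: 1987 members (34.3%) had exactly 1 keratin UMI, and 2001 cells that met the rest of the rule had none. Krt18 was detected in 65.0% to 78.1% of members by library and Krt7 in 54.5% to 65.6%. On the side of granular duct cells, 75 members had 4 to 5% Klk1b UMIs, 35 otherwise eligible cells had 5 to 6%, and 160 in all had 5% or more. At the mitochondrial limit, 43 members lay between 9 and 10% and 23 otherwise eligible barcodes between 10 and 11%.

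The mitochondrial label held for nuclear genes and not for mitochondrial RNA. Summed over 84 nuclear genes of the respiratory chain chosen by symbol, which leaves out the rule gene Cox8b, the median member had 8.69% and 11.02% of its UMIs from these genes in the deligated libraries and 9.57% and 10.0% in the homeostatic ones. Pecam1-positive cells had medians of 1.63% to 1.83%, and Ptprc-positive cells of 1.85% to 2.16%. Transcripts of the mitochondrial genome went the other way: the median member had 0.0286%, 0.108%, 0.0838% and 0.0949% of its UMIs from them, against 2.05% to 3.002% in Pecam1-positive cells, and 35% to 50% of members, by library, had no such UMI. Keratin-positive cells with at least 5% Klk1b UMIs were as low, with medians of 0.0635% (5 cells of deligated library 2), 0.0916% and 0.0931% (homeostatic). The nuclear RNA Malat1 had no UMI in 15.6% and 42.0% of deligated members and in 59.1% and 56.4% of homeostatic ones, so it moved with the group. The cells are therefore called here by their genes, Fxyd2/keratin cells, and "mitochondria-rich" is not carried over as a measured property. Their low depth, their low mitochondrial UMIs and this difference in Malat1 stand beside every level below, and the part of RNA quality in these levels was not tested.

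**Figure D2:**
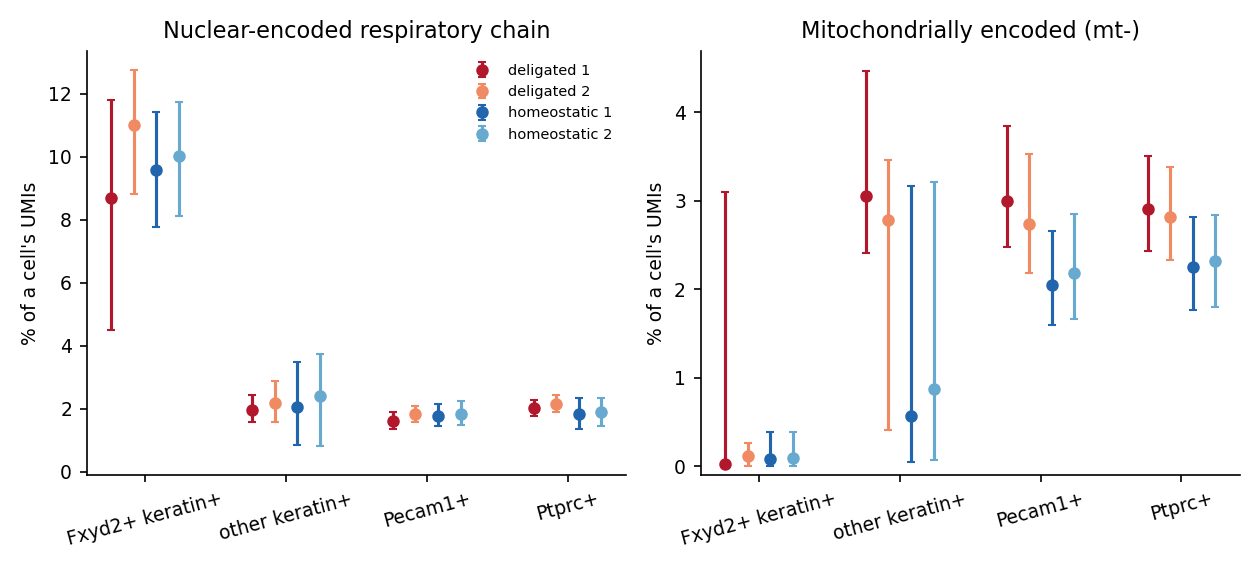
Percentage of a cell's UMIs from nuclear genes of the respiratory chain (left) and from the mitochondrial genome (right), in 4 classes of cells of each library. Points are medians and bars quartiles over cells. The Fxyd2/keratin cells are highest on the left, at 8.69% to 11.02%, and lowest on the right, at 0.0286% to 0.108%.

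Every nuclear complex took part. As a sum of thinned levels, complex I genes made up 2.32%, 3.08%, 2.84% and 2.93% of member UMIs (deligated 1, deligated 2, homeostatic 1, homeostatic 2, the order used throughout), against 0.565% to 0.742% in Pecam1-positive cells. Complex II, the succinate dehydrogenase that also belongs to the citric acid cycle, made up 0.188%, 0.250%, 0.168% and 0.166%, against 0.0268% to 0.0374%. Complex III reached 1.09% to 1.32% (Pecam1-positive 0.183% to 0.224%), complex IV, without Cox8b, 2.32% to 2.64% (0.386% to 0.509%) and complex V, the ATP synthase, 2.46% to 3.42% (0.424% to 0.546%). Deligated library 1 had the lowest sum for complexes I, IV and V over all members.

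The most abundant single subunits were small ones. Cox8a, the common form of cytochrome c oxidase subunit 8, stood at 2375, 4380, 3946 and 4152 thinned CPM in members, against 575 to 737 in Pecam1-positive cells. Cox7c, another oxidase subunit, stood at 3750, 4400, 3052 and 3517, and Atp5e, the epsilon subunit of ATP synthase, at 2375, 4080, 3001 and 3611. For complex III, the hinge protein Uqcrh stood at 1750, 2640, 2407 and 2527 thinned CPM. Sdhb, the iron-sulfur subunit of complex II, stood at 875, 960, 757 and 732, against 102 to 135 in Pecam1-positive cells. No subunit named here was below the Pecam1-positive range in any library.

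Of the 5 cytochrome c oxidase isoform pairs read here, each of a common and a tissue-restricted form, only Cox7a and Cox8 showed more than traces of the restricted form. Because Cox8b is a rule gene its share is a description, and the same holds for Cox7a1, one of the markers chosen for these cells. The isoform shares were read in the 5400 members (93.2%) whose Fxyd2 and Cox8b UMIs made up at least 0.5% of all their UMIs, here called pair-rich cells, a cut set after the data were seen. In these cells deligated library 1 was highest for complex IV (2.92%, 2.76%, 2.51% and 2.63% of thinned UMIs) and lowest for complex I alone. Cox7a1 contributed 27.5%, 23.1%, 15.1% and 17.0% of the Cox7a1 and Cox7a2 UMIs, against 0.395%, 0.434%, 2.62% and 3.28% in Pecam1-positive cells. Cox8b contributed 7.21%, 8.38%, 4.12% and 4.73% of the Cox8b and Cox8a UMIs, against 0.194%, 0.226%, 1.03% and 1.27%. The restricted forms were present too in homeostatic keratin-positive cells with at least 5% Klk1b UMIs, with Cox7a1 at 9.15% and 10.2% (exact intervals 5.21 to 14.6 and 7.40 to 13.5) and Cox8b at 2.67% and 3.49% (1.16 to 5.19 and 2.20 to 5.23). The common forms thus remained the majority in every library. Cox4i2, Cox6a2 and Cox6b2, the restricted forms of the other 3 pairs, made up at most 0.34% of their pair in pair-rich cells.

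**Figure D3:**
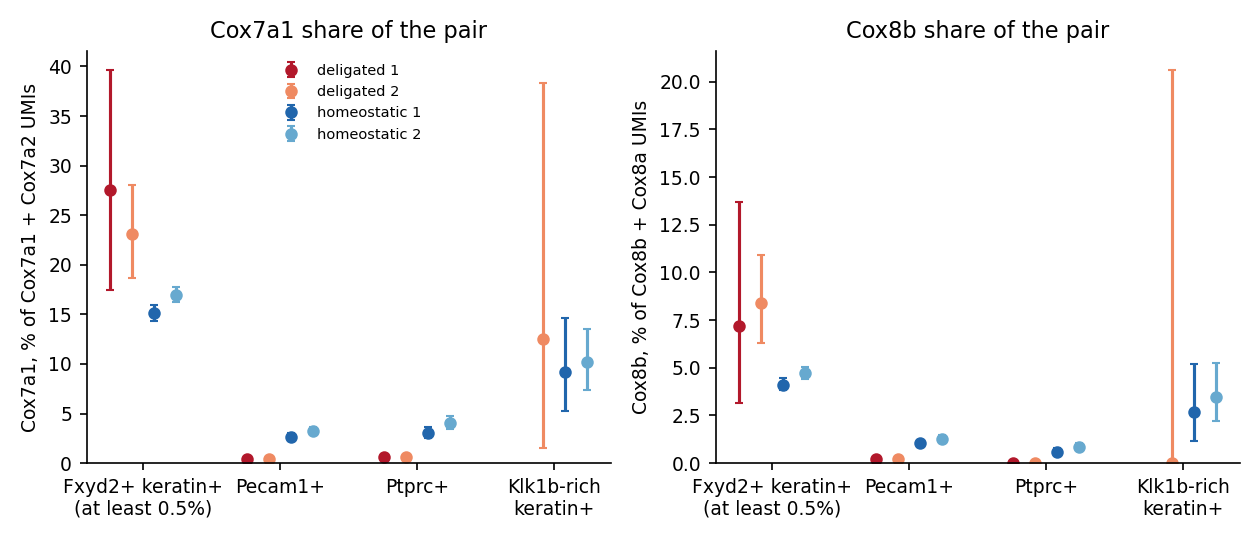
Share of the tissue-restricted form among the UMIs of each isoform pair, with exact 95% intervals that cover counting error only, in pair-rich Fxyd2/keratin cells, in Pecam1-positive and Ptprc-positive cells, and in keratin-positive cells with at least 5% Klk1b UMIs, of which deligated library 1 had none and deligated library 2 had 5. Cox7a1 shares of 15.1% to 27.5% and Cox8b shares of 4.12% to 8.38% in Fxyd2/keratin cells stand above the Pecam1-positive and Ptprc-positive ones, and the homeostatic Klk1b-rich cells lie between, with intervals that overlap those of Fxyd2/keratin cells of the same library for Cox8b in both libraries and for Cox7a1 in homeostatic library 1.

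Genes that feed the respiratory chain were high as well. The energy supply list (29 genes of the citric acid cycle, fatty acid oxidation, creatine kinases and mitochondrial carriers) summed to 1.22%, 1.36%, 1.09% and 1.08% of member UMIs, against 0.201% to 0.240% in Pecam1-positive cells. Slc25a5, an ADP/ATP carrier, stood at 1812, 2640, 2005 and 2005 thinned CPM, against 178 to 295. Ckmt1, the ubiquitous mitochondrial creatine kinase, stood at 312, 440, 493 and 499, against 0 to 26.2, while the muscle form Ckmt2 had no UMI in members after thinning. Regulators of mitochondrial biogenesis (12 genes) summed to only 0.0625%, 0.0220%, 0.0357% and 0.0356% of member UMIs, against 0.0140% to 0.0203% in Pecam1-positive cells. Ppargc1a, a coactivator of mitochondrial biogenesis, stood at 62.5, 100, 56.8 and 63.2 and the nuclear receptor Esrrg at 62.5, 20, 77.9 and 65.2 thinned CPM, which is 1 UMI each in deligated library 1.

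Genes of ductal ion transport were led by the sodium-potassium pump. Fxyd2 itself stood at 17438, 24340, 22382 and 22956 thinned CPM in members, against 7.33, 55.8, 1050 and 1088 in Pecam1-positive cells. Atp1b1, the beta subunit of the pump, stood at 937.5, 620, 250 and 242, against 5.24 to 22.9. Keratin-positive cells with at least 5% Klk1b UMIs had more of it than homeostatic members, with 632 and 724 in the homeostatic libraries and 1200 in 5 cells of deligated library 2. The sodium channel subunit Scnn1a, which carries sodium uptake in ducts, stood at only 17.5 and 18.5 in the homeostatic libraries. Tfcp2l1, a transcription factor of ductal epithelia, stood at 1562.5, 1500, 1068 and 980, against 0 to 65.4.

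Kallikrein RNA was abundant below the Klk1b limit of the rule. Klk1, the tissue kallikrein, stood at 55125, 35480, 28583 and 29658 thinned CPM in members, against 63.9, 122, 1678 and 1742 in Pecam1-positive cells. The 17 granular duct markers together made up 6.33%, 4.23%, 3.69% and 3.78% of member UMIs. In the 57 and 105 homeostatic cells with a keratin UMI and at least 5% Klk1b UMIs, of which 53 and 102 met every other condition of the rule, Klk1 stood at 146456 and 188762 thinned CPM, Fxyd2 at 11789.5 and 12400 and Krt7 at 561 and 552, against 650 and 735 for Krt7 in members. The respiratory chain made up a median of 6.99% and 7.03% of UMIs in those cells. The renin gene Ren1, a granular duct product in some strains, had no UMI in members after thinning.

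Some members carried RNA of other cell types. Acinar and intercalated duct markers (13 genes) made up 0.0938% and 0.0360% of UMIs in deligated members, with 9 of 13 genes at 0 in each library, and 1.21% and 0.852% in homeostatic members, with 1 gene at 0 in each. The genes at 0 were counted in unthinned sums of 90698 and 162499 UMIs (deligated) and 6154717 and 6137647 (homeostatic). Their numbers therefore cannot be compared between groups. The homeostatic Pecam1-positive cells also held 0.232% and 0.227% of them, against 0.00189% and 0.00746% in the deligated ones. The 6 fibroblast markers made up 0.338%, 0.116%, 0.0298% and 0.0212% of member UMIs, and in pair-rich cells 0.0250%, 0.0409%, 0.00620% and 0.00709%. Haemoglobin and the other erythroid markers made up 1.46%, 0.0460%, 0.667% and 0.348%. Muscle markers, which share Cox8b and Cox7a1, had no UMI in deligated members (7 of 7 genes at 0 in each) and were at or below 0.000655% in homeostatic ones. The deligated sums were too small to tell their 0 from that level.

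Acinar RNA was found in shallow members too: those of 500 to 1000 UMIs in the homeostatic libraries had a median of 3.15% of UMIs from Mucl2, and pair-rich homeostatic cells held 0.617% and 0.645% of the acinar and intercalated markers. The deepest members stood apart from the others. The 34 members with at least 20000 UMIs, all homeostatic, had a median of 60.1% of their UMIs from Mucl2, a secreted mucin-like protein of acini, and Fxyd2 at 163 CPM, while the 234 with 5000 to 20000 UMIs had a median of 0.574% from Mucl2. Summed, those 234 held Mucl2 at 183843 and the haemoglobin Hbb-bs at 60132 CPM, and the Mucl2 sum was thus far above the median. The 10 deligated members with at least 5000 UMIs held Malat1 at 62116, the fibroblast proteoglycan Dcn at 8107 and Fxyd2 at 2062 CPM. The 393 members outside the pair-rich set held 63.5%, 28.0%, 42.2% and 37.9% of their library's member UMIs. Within the pair-rich cells 1 further cell mattered: a deligated library 1 cell of 12252 UMIs held 37.0% of that library's pair-rich UMIs, and all of its UMIs for Krt17 (31), S100a6 (61), Il33 (10) and Lcn2 (8).

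Some pair-rich cells held UMIs of Ascl3 or Foxi1, transcription factors of ionocytes, the proton-pump-rich cells scattered in ducts. Such a UMI was present in 0 of 24 cells (exact interval 0 to 14.2%), 5 of 93 (5.38%, 1.77 to 12.1), 279 of 2547 (10.95%, 9.77 to 12.2) and 215 of 2736 (7.86%, 6.88 to 8.93). These are shares of cells with a UMI, and a cell without one may still express either gene. Pecam1-positive cells, which were deeper (medians of 6070, 4655, 3638 and 3620.5 UMIs, against 705.5, 1002, 1072 and 1072), had such a UMI in 0%, 0.157%, 2.21% and 2.30%. With every cell at 500 UMIs the pair-rich shares were 0%, 4.30%, 6.56% and 4.86%, against 0.452% and 0.355% of homeostatic Pecam1-positive cells and 0 of 1909 and 0 of 3192 deligated ones. The 2 homeostatic pair-rich shares differed beyond their counting intervals before thinning, and the intervals overlapped after it (5.63 to 7.59 and 4.09 to 5.73). Cells with such a UMI were somewhat deeper, with median UMIs of 1353 and 1296 against 1052 and 1059 in the homeostatic libraries. Since a UMI of either gene chose them, the following values are a description.

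In the homeostatic libraries these cells had more Stap1, an adaptor protein gene on the ionocyte list, with 1000 and 879 CPM against 50.2 and 54.6 in the pair-rich cells without Ascl3 and Foxi1. Atp6v1g3, a proton pump subunit, stood at 114 and 141 against 8.47 and 11.9, and Atp6v0d2 at 601 and 453 against 290 and 261. Ifi27l2a, an interferon-inducible gene, stood at 6145 and 5443 against 989 and 1059, the annexin Anxa1 at 1727 and 1700 against 284 and 265, and the calcium-binding S100a6 at 1507 and 1264 against 141 and 174. Klk1 was lower, at 19079 and 17657 against 37094 and 36713, and remained lower after thinning, at 15713 and 14763 against 32300 and 32698. Cox8b was lower too, at 53.0 and 103 against 197 and 220. Fxyd2 (20454 and 20160 against 23744 and 23939), Krt7 (699 and 751 against 659 and 694) and the respiratory chain median (9.00% and 9.22% against 10.0% and 10.3% of UMIs) lay close together.

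**Figure D4:**
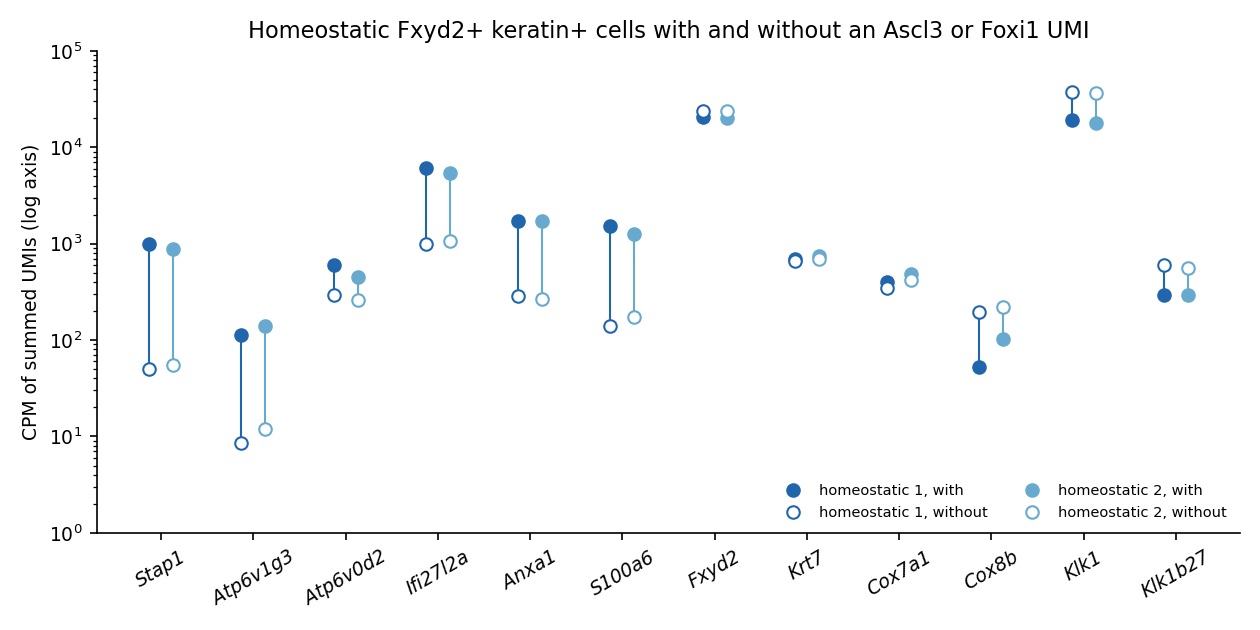
CPM of summed UMIs, on a log axis, in pair-rich Fxyd2/keratin cells of the 2 homeostatic libraries with (filled) and without (open) an Ascl3 or Foxi1 UMI. Stap1, Ifi27l2a, Anxa1 and S100a6 lie several-fold higher in cells with the UMI, Klk1 and Cox8b lower, and Fxyd2, Krt7 and Cox7a1 close together.

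Members of the deligated and homeostatic libraries were compared on UMIs summed per library, 2 against 2, with edgeR's quasi-likelihood test. Over all members, 352 of 10468 genes tested passed an adjusted p of 0.05 (3.36%): 271 were higher in deligated members (2.59%) and 81 lower (0.774%). Over pair-rich cells, 83 of 8315 passed (0.998%), with 26 higher (0.313%) and 57 lower (0.686%). Leaving out the 1, 0, 39 and 39 pair-rich cells with at least 5000 UMIs, 64 of 7907 passed (0.809%), with 14 higher (0.177%) and 50 lower (0.632%). The lists of calls over all members and over pair-rich cells shared 53 genes, which is 15.1% of the first and 63.9% of the second. The split of calls rested on the scaling: with library totals in place of trimmed-mean factors, the share of higher calls went from 77.0% to 96.0% over all members and from 31.3% to 69.7% over pair-rich cells, and the median log2 fold change of all genes moved from -0.13 to 0.69 and from -0.26 to 0.23.

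Over all members, the 10 largest rises included the matrix genes Spp1, Cilp, Col6a5, Lox and Adamts1, and 9 of these genes were too low in pair-rich cells to be tested there. Spp1, the matrix protein osteopontin, had 131, 1, 4 and 22 UMIs (log2 fold change 7.26, SE 1.00, adjusted p = 0.00032). In pair-rich cells it had 0, 0, 2 and 6. Deligated library 1 thus supplied nearly all of it. Gpx3, a secreted glutathione peroxidase, had 66, 30, 80 and 52 UMIs (log2 fold change 4.36, adjusted p = 2.8e-05), and in pair-rich cells 0, 0, 6 and 1. Cilp, Col6a5, Socs3, Lox, Gdf10 and Adamts1 had log2 fold changes of 4.02 to 6.48. Of the fibroblast markers, 5 of 6 tested rose, against 2.59% of all genes (median 2.86, against -0.13 for all genes), Col1a1 with 915, 714, 44.2 and 45.5 CPM. With all members thinned to 500 UMIs 6 of 6 rose (median 2.86), against 29 of 5795 genes tested. In pair-rich cells 0 of 6 were called (median 0.33), where 0.313% of all genes rose.

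Early response genes and genes of duct injury were also called mainly over all members. There 5 of 13 early response genes rose (Fos, Fosb, Egr1, Junb and Zfp36), against 2.59% of all genes, and in pair-rich cells Fos alone of 11, against 0.313%. With all members thinned to 500 UMIs 0 of 10 early response genes passed, and their median log2 fold change went from 1.32 to 0.27. In unthinned pair-rich cells Fos stood at 573, 94.1, 21.9 and 35.7 CPM (log2 fold change 2.31, SE 0.38, adjusted p = 2.8e-07), and the Fos call was lost without the deep pair-rich cells (log2 fold change 1.504, SE 0.53, adjusted p = 0.29) and without deligated library 1 (1.30, SE 0.48, 0.25). Pecam1-positive cells had Fos at 1312, 1564, 546 and 554 CPM, so the groups were parted in the same direction there. Of the duct injury and repair genes, 6 of 19 rose over all members (Vim, Lcn2, S100a6, Spp1, Krt17 and Il33), 0 of 10 with all members thinned, and 1 of 12 in pair-rich cells. That one, Lcn2, had 8, 1, 5 and 2 UMIs, and all 8 came from the single deep cell. Without the deep pair-rich cells S100a6 fell instead, with 0, 137, 304 and 252 CPM (log2 fold change -1.63, adjusted p = 0.0019).

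Atp1b1, the pump's beta subunit, rose in deligated pair-rich cells. The genes from here on that lie outside the naming rule were chosen after their values were seen. Atp1b1 had 62, 64, 985 and 1062 UMIs in pair-rich cells, or 1870, 547, 277 and 278 CPM, and both deligated libraries stood above both homeostatic ones (log2 fold change 1.22, SE 0.23, edgeR adjusted p = 1.57e-05). Without the deep pair-rich cells these were 1101, 547, 285 and 271 CPM (log2 fold change 0.83, adjusted p = 0.033), and with pair-rich cells thinned to 500 UMIs the log2 fold change was 1.16 (adjusted p = 0.012). Over all members the log2 fold change was 0.59 and did not pass (adjusted p = 0.46). A UMI of Atp1b1 was present after thinning in 31.2%, 25.0%, 10.9% and 9.78% of members (46.9%, 41.0%, 24.3% and 23.0% before), against 0.262%, 0.219%, 1.12% and 1.04% of Pecam1-positive and 3.94%, 3.43%, 3.18% and 3.33% of Ptprc-positive cells (29.2%, 31.8%, 27.0% and 27.6% of the deeper Ptprc-positive cells before). In Pecam1-positive cells Atp1b1 stood at 4.58, 3.72, 37.3 and 19.2 CPM, so the groups were parted in the opposite direction there.

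The Atp1b1 call rested on the libraries kept. In pair-rich cells it no longer passed without deligated library 1 (log2 fold change 0.58, adjusted p = 0.10), without homeostatic library 1 (1.80, 0.32), without homeostatic library 2 (1.85, 0.25) or with the replicate number as a covariate (1.29, 0.66). Atp1b1 was among the 2 of 18 tested ion transport genes, Fxyd2 left out, that passed in pair-rich cells, against 0.998% of all genes. Over all members 2 of 23 passed, the water channel Aqp5 and the cotransporter Slc12a2, both lower, against 3.36% of all genes (0.774% lower). Slc12a2 had a log2 fold change of -2.32 over all members (0, 8, 492 and 599 UMIs) and of 0.89 in pair-rich cells (adjusted p = 0.63). Atp1b1 overlaps Nme7 on the other strand, and whether the counting used strand is not stated. Atp1b1 lies at chr1:164437109-164458355 of GRCm38.

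A few other genes were higher in both deligated libraries. Ccnd1, cyclin D1 of the early cell cycle, had 7, 14, 96 and 90 UMIs in pair-rich cells, or 211, 120, 27.0 and 23.6 CPM (log2 fold change 1.98, SE 0.44, adjusted p = 0.0011). This call held without either deligated library, without the deep cells (log2 fold change 1.99, adjusted p = 0.0047) and after thinning (2.52, 0.012), but not without homeostatic library 1 or 2 (Ccnd1 adjusted p = 0.20 and 0.26). Its Pecam1-positive levels were 311, 237, 226 and 221 CPM. H2-K1, a class I histocompatibility antigen, stood at 543, 393, 132 and 139 CPM (log2 fold change 1.17, SE 0.25, adjusted p = 0.00047), against 1811, 2382, 1831 and 1850 in Pecam1-positive cells. Its adjusted p was 0.0076 without the deep cells, 0.17 after thinning, and 0.83 and 0.51 without homeostatic library 1 or 2. Aplp2, of the amyloid precursor family, had a log2 fold change of 2.13 (adjusted p = 2.3e-06), and 1.74 without the deep cells (0.023), and passed without any 1 library (adjusted p at most 0.011). Malat1 passed with 2.70, but at 31977, 975, 1529 and 1540 CPM this was deligated library 1 alone.

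Secretory transcripts of acini were lower in deligated members. Of the acinar and intercalated markers, 9 of 12 tested fell over all members (against 0.774% of all genes) and 7 of 10 in pair-rich cells (against 0.686%): Dcpp1, Dcpp2, Dcpp3, Bpifa2, Smgc, Pip and Prol1. Wfdc12, a whey acidic protein gene, had 0, 0, 7575 and 6354 UMIs over all members, at least 95.6-fold lower against a floor of 3 UMIs over the deligated group. Bpifa2, a secreted salivary protein, had 0, 0, 6195 and 3723 (at least 68.1-fold lower), and Aqp5 had 0, 0, 456 and 375 (at least 5.71-fold lower). All of the 10 largest falls, which also include Camk1d, A2ml1, Smgc, Mup5, Gm26561, Pglyrp1 and A630073D07Rik, had no UMI in either deligated library. In pair-rich cells 6 of these 10 passed. Dcpp2, an acinar secretory gene, had 0, 0, 4950 and 6301 UMIs there (at least 76.3-fold lower). It overlaps Dcpp1 on the same strand, so the UMIs of this near-identical family may be shared among its genes.

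Mucl2 stood at 362, 2899, 33086 and 33729 CPM in pair-rich cells (log2 fold change -4.73, SE 0.78, edgeR adjusted p = 4e-07). In Pecam1-positive cells of the same libraries it stood at 60.3, 853, 36843 and 24338 CPM. The fall of acinar secretory RNA was thus seen in both kinds of cell, and its part in the difference between members was not tested. Haemoglobin behaved differently: Hbb-bs stood at 30.2, 274, 3658 and 4704 CPM in pair-rich cells (log2 fold change -4.90, adjusted p = 1.6e-13) and at 2636, 8288, 5824 and 5360 in Pecam1-positive cells. Without the deep pair-rich cells its log2 fold change was -1.77 (adjusted p = 3.9e-06), and over all members, where deligated library 1 was highest (18115, 203, 13664 and 6494 CPM), Hbb-bs did not pass (-1.05, adjusted p = 0.69). Of the 5 erythroid markers 1 passed over all members, Hbb-bt, lower in deligated members (against 0.774% of all genes). Cmss1, Cdk8 and Gphn, genes with long introns, had log2 fold changes of -8.53, -7.01 and -7.69. As a class, genes with over 100 kb of introns passed at 0.933% in pair-rich cells, against 0.998% of all genes. Over all members they passed at 3.48%, against 3.36%. Cmss1 stood at 15.1, 15.0, 5358 and 5449 CPM in Pecam1-positive cells, so its groups were parted in the same way there.

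Among genes at low level in Pecam1-positive cells, Stap1 had 0, 6, 645 and 512 UMIs in pair-rich cells (log2 fold change -2.47, SE 0.49, edgeR adjusted p = 0.0001), against 0.982 to 6.90 CPM in Pecam1-positive cells. Stap1 was also a gene of the Ascl3 or Foxi1 cells, of which deligated library 1 had none, and its adjusted p was 0.53 and 0.071 without homeostatic library 1 or 2. Wfdc18, an epithelial whey acidic protein gene, had 0, 1, 986 and 645 UMIs (log2 fold change -5.53, adjusted p = 2.9e-12). Nupr1, a stress-response nuclear protein, stood at 302, 590, 1097 and 1052 CPM (log2 fold change -1.64, SE 0.40, adjusted p = 0.0057). It passed without the deep cells (-1.35, adjusted p = 0.00072) but not without homeostatic library 1 or 2 (0.69 and 0.60), and had 11.3, 31.4, 94.1 and 76.7 CPM in Pecam1-positive cells.

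**Figure D5:**
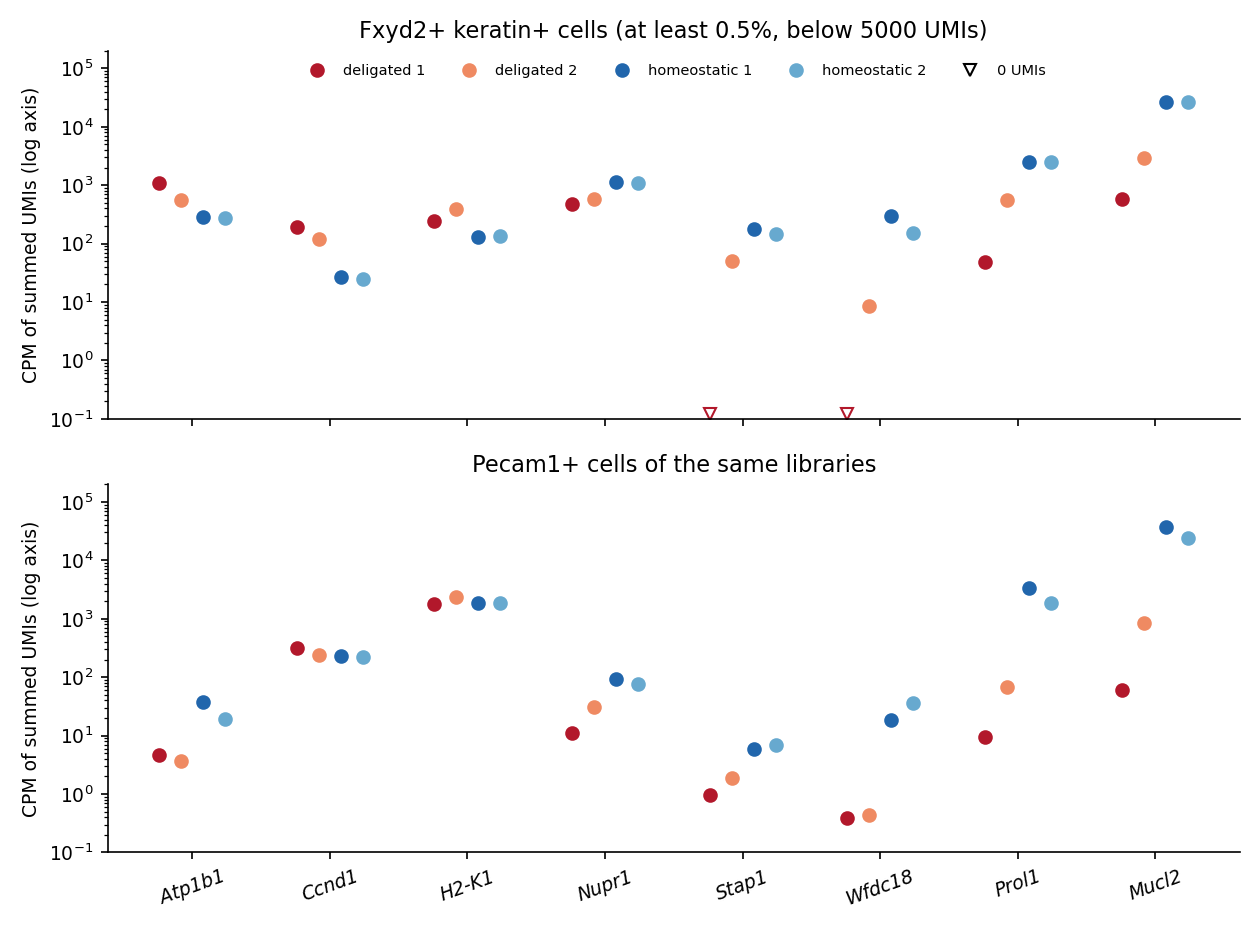
CPM of summed UMIs, on a log axis, of 8 genes in each library, in pair-rich Fxyd2/keratin cells below 5000 UMIs (top) and in Pecam1-positive cells (bottom). Triangles mark 0 UMIs. Atp1b1, Ccnd1 and H2-K1 lie higher in both deligated libraries in the top panel; in the bottom panel Ccnd1 keeps that order with a smaller gap and Atp1b1 has the opposite one. Nupr1, Prol1 and Mucl2 are lower in deligated cells of both panels.

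Calls between groups in the respiratory chain were near the share among all genes, 3.36% over all members and 0.998% in pair-rich cells. Of 81 nuclear genes tested over all members, Cox8b left out, 1 passed, Ndufa4l2 (log2 fold change 1.74, adjusted p = 0.038, with 0 UMIs in deligated pair-rich cells), and in pair-rich cells 0 of 78 passed. With library totals 2 of 81 passed (Ndufa4l2 and Cox4i2) and 1 of 78 (Cox7a1, a marker chosen for these cells), all higher in deligated cells. The median log2 fold change of these genes was -0.73 over all members and -0.51 in pair-rich cells, against -0.13 and -0.26 for all genes, and with library totals the medians were 0.10 and 0.03, against 0.69 and 0.23. Genes of the mitochondrial genome did not pass in either set (0 of 13, medians 0.38 and 0.08), though with library totals mt-Nd3 was higher over all members and mt-Atp8, mt-Co1 and mt-Co2 in pair-rich cells. Without the deep pair-rich cells 10 of 13 passed as lower in deligated cells, against 0.632% of all genes. All 13 had a log2 fold change below 0 there (median -1.56, against -0.18 for all genes), so their direction changed with a few deep cells. Of 26 energy supply genes none passed in either set with trimmed-mean factors, and Esrrg was lower over all members (log2 fold change -2.51, adjusted p = 0.0019) but did not pass in pair-rich cells (-1.30, 0.36). With 24 and 93 deligated pair-rich cells behind these tests, small changes may have been missed.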

How the data were processed

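The authors deposited raw UMI counts per gene and barcode for 4 droplet libraries. Cell Ranger 6.0.1, mm10 and Seurat are named per the submitters' processing notes. Cell Ranger is version 6.0.1 per the file headers of the deligated matrices and 7.0.0 per those of the homeostatic ones, and versions differ in whether intronic reads count by default; the setting is not given in the sources used here. Here, cells were chosen with the rule given above; the members and gene lists were chosen with earlier results of these data known. UMIs were summed per library and tested with edgeR 4.0.16 (R 4.3.3; trimmed-mean factors, low-count filter, quasi-likelihood test, Benjamini-Hochberg, threshold 0.05) on all genes, with DESeq2 1.42.0 as an alternative. SEs are the log2 fold change over the root of F. Doublets were left in. Of 31053 gene identifiers 99.6% matched GENCODE M21 (GRCm38), the source of positions and overlaps. The fit was tested on simulated data. The text names rule genes and markers, up to 8 genes a list by level at 100 CPM or passing the test, and the 10 largest rises and falls that passed with groups apart; a few such genes are not reported here.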

Additional observations from a re-analysis of the deposited data

How the results depend on the processing

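The share of members kept its direction and its call under all 15 alternatives, among them the replicate block, with the number in the titles as a covariate (log2 ratio -4.57), and the largest adjusted p was 1.11e-05. The number of genes called moved widely. From 352 it went to 797 with library totals and 66 after thinning, and from 70 to 1604 when 1 replicate was left out. Without a filter on low counts it was 0 by edgeR, with 1517 genes at an unadjusted p under 0.05, against 376 by DESeq2 with the filter. The replicate block gave 292; same-numbered libraries did not deviate together (correlation of deviations -0.05), so the numbers were not taken as pairs. The following were chosen after seeing the data: at least 5 UMIs of the pair gave 165, and pair-rich cells gave 83. Within pair-rich cells the number was 64 below 5000 UMIs, 41 after thinning, 75 with the intron-length trend removed, 122 with library totals, 67 with other size factors, 39 with the replicate block and 32 to 472 (33 and 223 between) when 1 replicate was left out. The cause was not tested. Fxyd2 in homeostatic members, 14366 CPM of summed UMIs, was 12811 with at least 1000 UMIs a cell, 16276 with at least 5 pair UMIs, 23432 in pair-rich cells and 22669 after thinning; the respiratory chain, 6.33% of summed UMIs, was 5.72%, 7.06%, 9.83% and 9.56%. Of 1121 alternative values for 50 named genes, 28 reversed. In pair-rich cells, S100a6 was -0.83 after thinning, -1.63 below 5000 UMIs and -1.55 without deligated library 1; Junb was -0.42, -0.29 and -0.050 under the same settings; and Vim was -0.44, -0.019 below 5000 UMIs, -0.35 with the intron trend removed, -0.33 with other size factors, -0.28 with the replicate block and -0.99 without deligated library 1. Zfp36 was -8.15 there without deligated library 2, Il33 -5.93 without deligated library 1, and Krt17 -7.64 over all members without deligated library 1 and up to 5.05 without another library. The values below -5 belong to genes with no UMI left in the deligated library that remained. In pair-rich cells, Malat1 was -1.05 without deligated library 1 and -0.12 below 5000 UMIs, and Ndufa4l2 was -6.42 and -6.40 without either deligated library. Slc12a2 was 1.02 after thinning, and in pair-rich cells 0.89, 1.40 after thinning, 1.22 below 5000 UMIs, 0.88 with the intron trend removed, 1.38 and 1.01 with library totals and other size factors, 0.87 with the replicate block and 1.35 without deligated library 1. Of 45 named genes past the threshold, 23 kept it under every alternative fixed at the start but the one without a filter.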

Other observations

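The cells just outside the rule resembled the members in part. The 20, 60, 904 and 1017 cells that met every condition except a keratin UMI had a median of 2.87%, 5.45%, 8.76% and 9.22% of UMIs from the nuclear respiratory chain, so the homeostatic ones lay near the members and those of both deligated libraries lay lower. In deligated library 1 these cells had a median of 6071 UMIs and Fxyd2 at 767 CPM.

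The 142 and 148 homeostatic barcodes set aside only for over 10% mitochondrial UMIs had medians of 20.5% and 18.0% mitochondrial UMIs. They still had 6.05% and 6.72% from the nuclear respiratory chain and Fxyd2 at 8690 and 10602 CPM. Malat1 stood at 18506 and 19213 CPM in them.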
